A study of Homo sapiens with 2 samples.

Results

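Serpins are a family of proteins that share one fold, and most of them inhibit serine proteases. The family was examined in cultured esophageal cancer cells that had been sorted by CD44. Members were taken by name from the deposited gene table: every protein coding row whose symbol begins with SERPIN, a clade letter from A to I and a number. This gave 35 rows with 34 symbols, since SERPINA3 is listed under 2 gene identifiers, out of 60725 genes and 19844 protein coding genes. Clade B, the SERPINB genes, held 13 of these rows, 10 on chromosome 18 and 3 on chromosome 6, and the other clades held 22.

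The cells were KYSE30, a long-established human line of esophageal squamous cell carcinoma (ESCC). It carried luciferase and GFP from lentiviral transduction, after which cells were selected with blasticidin and puromycin, and had been grown in RPMI1640 medium. They were stained for CD44, a cell surface receptor for hyaluronan, and the brightest and dimmest tails of the staining were collected by flow cytometry as the CD44 high and the CD44 low fraction. Both fractions came from this 1 engineered line and gave 1 library of polyadenylated RNA each. Expected counts summed to 21633236 in CD44 high cells and to 22859583 in CD44 low cells.

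An inhibitory serpin offers its target protease an exposed loop, the reactive centre. When the protease cleaves the loop, the serpin changes shape and traps the enzyme in a complex that it cannot leave. Clade B serpins lack a classical secretion signal and act mainly inside cells, where several of them are known from squamous epithelium. Most of the other clades are secreted, and some serpins, maspin and the collagen chaperone HSP47 among them, have no protease to inhibit.

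Sequence upstream of a start site is shown here for the clade B members whose values the account below turns on. These are SERPINB2, the clade B gene that passed a 2-fold difference, and SERPINB7, whose reads were assigned to different start sites in the 2 libraries. Each run is the plus strand of chromosome 18, 5′ to 3′, from the RefSeq promoter table (GRCh38.p14), and ends at the base before the first exon of the named transcript. Capitals mark TATA letters (TATAAA on either strand), AP-1 letters (TGACTCA on either strand) and heat shock letters (GAANNTTC).

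SERPINB2, chr18:63887455-63887699, before ENST00000299502: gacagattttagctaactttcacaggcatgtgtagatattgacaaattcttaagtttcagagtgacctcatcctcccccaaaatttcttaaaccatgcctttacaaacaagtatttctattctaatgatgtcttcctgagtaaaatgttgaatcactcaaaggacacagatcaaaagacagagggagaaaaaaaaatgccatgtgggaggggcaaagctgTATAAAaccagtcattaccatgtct
SERPINB7, chr18:63752807-63753046, before ENST00000336429: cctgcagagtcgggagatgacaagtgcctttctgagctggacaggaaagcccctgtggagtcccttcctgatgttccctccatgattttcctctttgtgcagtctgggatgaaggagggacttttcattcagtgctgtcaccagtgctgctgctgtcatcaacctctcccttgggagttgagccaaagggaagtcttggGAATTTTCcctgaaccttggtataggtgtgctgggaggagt
SERPINB7, chr18:63775168-63775409, before ENST00000398019: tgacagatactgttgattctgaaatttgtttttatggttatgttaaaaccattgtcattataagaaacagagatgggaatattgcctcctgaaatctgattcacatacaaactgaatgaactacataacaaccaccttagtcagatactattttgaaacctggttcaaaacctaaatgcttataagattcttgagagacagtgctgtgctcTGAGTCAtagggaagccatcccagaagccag
SERPINB7, chr18:63777531-63777776, before ENST00000546027: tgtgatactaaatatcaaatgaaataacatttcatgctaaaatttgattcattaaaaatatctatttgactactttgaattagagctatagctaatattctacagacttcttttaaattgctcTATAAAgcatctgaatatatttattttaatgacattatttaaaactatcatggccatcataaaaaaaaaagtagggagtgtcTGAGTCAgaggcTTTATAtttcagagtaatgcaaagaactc

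The TATA letters of SERPINB2 began 25 bases before the first exon. The AP-1 letters of SERPINB7 stood before the downstream starts of ENST00000398019 and ENST00000546027, 31 and 41 bases from the first exon. They were not within the window of the upstream start, which held heat shock letters 41 bases from its exon. A further transcript, ENST00000540675, begins just ahead of the AP-1 letters in the window of ENST00000398019, so these letters do not stand before its start. A match of letters is a description of the sequence and not of a factor bound there.

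The sort was checked on its own transcript before the serpins were compared. CD44 had 22819 expected counts in CD44 high cells and 9727 in CD44 low cells, a ratio of 2.35 (95% counting interval 2.29 to 2.41), so the mRNA followed the sorted protein. Squamous markers were present in the line, with SOX2 and DSG3 among the abundant ones, while the basal keratin KRT5 was near 0 (0 against 8 counts). Mitochondrial genes made up 7.50% of all counts in CD44 high cells and 14.0% in CD44 low cells. Each group was a single library, so no difference given here has a replicate check, and every interval covers counting error alone.

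Most of the family was silent or nearly so in these cells. Of the 35 rows, 19 had no counts in either library, 4 had more than 0 but fewer than 20 counts in both, and 12 were measured, meaning at least 20 expected counts in a library. The SERPINA cluster on chromosome 14, which holds the plasma inhibitors made by liver, had 8 of 10 rows at 0. The remaining SERPINA rows were SERPINA1 (antitrypsin) with 5 counts in the CD44 high and 6 in the CD44 low library, and SERPINA3 (antichymotrypsin) with 4 and 7. SERPINC1 (antithrombin), SERPIND1 (heparin cofactor II) and SERPING1 (the inhibitor of complement C1) were all at 0 in both libraries, a count that allows up to 3 counts per library.

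Within a library, levels were compared as TPM, which is scaled by transcript length. Maspin and HSP47 dominated the family in both libraries, and the order of the 5 most abundant members did not change. SERPINB5 (maspin) ranked first, at 101 TPM in the CD44 high and 105 TPM in the CD44 low library. SERPINH1 (HSP47), a chaperone that folds collagen in the endoplasmic reticulum, came next with 79.7 and 81.1 TPM. SERPINB5 and SERPINH1 together made up 64.4% of the family's TPM in CD44 high cells and 68.3% in CD44 low cells. SERPINB6, SERPINE2 and SERPINB1 followed in both libraries, between 16.4 and 39.3 TPM. The other 7 measured members lay between 1 and 7.38 TPM. Clade B as a whole took 59.9% of the family's TPM in CD44 high cells and 58.9% in CD44 low cells, so its share was nearly the same in both.

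**Figure D1:**
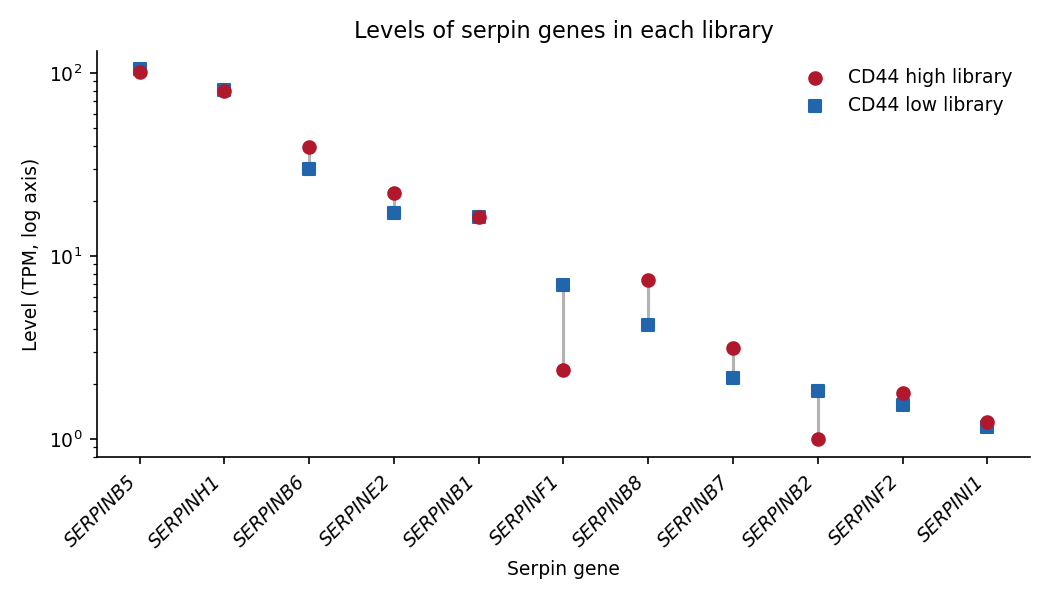
Level of 11 measured serpin genes in TPM on a log axis, with circles for the CD44 high library and squares for the CD44 low library (1 library each, no error bars). SERPINB5 and SERPINH1 stand at the top in both libraries, between 79.7 and 105 TPM, and SERPINF1 and SERPINB2 are the members with the widest gap downward in CD44 high cells.

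The serpin response to the CD44 sort was small, and the members that passed a 2-fold difference were both lower in CD44 high cells. The rule asked for a minimum of 50 expected counts in one of the libraries, a 2-fold or larger ratio, and a 95% counting interval that leaves out equality. Of the 11 members with enough counts, 0 were 2-fold higher and 2 were 2-fold lower, SERPINB2 and SERPINF1. Among all 11370 protein coding genes with enough counts, 1.13% were 2-fold higher and 3.83% were 2-fold lower. By the looser criterion of an interval that leaves out equality, 4 members were higher, 5 were lower and 2 were neither. The corresponding shares of all protein coding genes were 33.6% higher and 31.1% lower, so that at this depth most well covered genes differ by more than counting error. In a family of this size, one gene more or fewer moves the share at 2-fold by more than the background share itself, so nothing is read from the count of 2. In a bulk library, fewer cells that express a gene and less RNA per cell cannot be told apart, which holds for every ratio below.

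**Figure D2:**
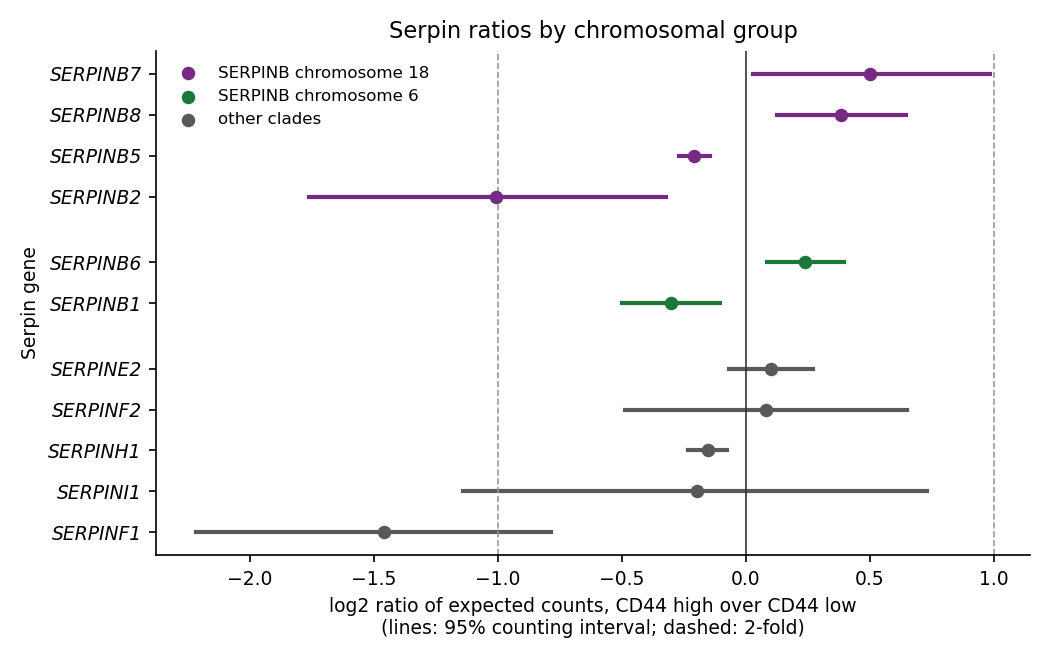
The log2 ratio of expected counts, CD44 high over CD44 low, for 11 of the 12 measured serpins (points) with 95% counting intervals (lines), grouped into the SERPINB genes of chromosome 18, those of chromosome 6 and the other clades. Dashed lines mark a 2-fold difference, and the points of SERPINB2 (-1.01) and SERPINF1 (-1.46) are the ones beyond it.

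SERPINB5 was the most deeply covered member. Maspin is an epithelial serpin that does not inhibit proteases and is studied as a tumor suppressor. The gene (ENSG00000206075, chr18:63476761-63505085, plus strand, GRCh38) had 3885 expected counts in CD44 high cells and 4494 in CD44 low cells. Its ratio was 0.865 (0.829 to 0.904), a log2 ratio of -0.21 that lay beyond counting error and well inside 2-fold. Nearly all of its TPM came from 1 transcript of 7 exons, ENST00000382771, with 97.7% in the CD44 high and 98.2% in the CD44 low library.

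SERPINB2 encodes plasminogen activator inhibitor type 2, which blocks urokinase. The gene (ENSG00000197632, chr18:63871692-63903890, plus strand) had 26 expected counts in CD44 high cells and 52.83 in CD44 low cells, and was thus among the less abundant measured members. It was 2.03-fold lower in CD44 high cells (1.25 to 3.39), a log2 ratio of -1.01. The count of 52.83 is not whole because the gene overlaps SERPINB10 over 6717 bases, and the 2 genes together had 53 counts in the CD44 low library and 26 in the CD44 high library. SERPINB10 itself was assigned 0 and 0.17 counts. The ratio sits at the edge of the rule: the log2 ratio was -0.98 with TMM factors and -0.93 with total counts, which ended the call. It was -0.50 on the log2(TPM + 1) scale, where the call also ended. SERPINB2 had 1 TPM in CD44 high cells and 1.83 TPM in CD44 low cells. The added 1 draws such small levels together, so the value of -0.50 is not a plain ratio of TPM.

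SERPINB7 and SERPINB8 lay on the other side of equality. SERPINB7, or megsin, is an epidermal serpin whose loss in humans causes a palmoplantar keratosis. It had 92 expected counts in CD44 high cells and 65 in CD44 low cells, a ratio of 1.42 (1.02 to 1.98) whose lower bound nearly reaches equality. SERPINB8, an inhibitor of the proprotein convertase furin, had 284 and 218 counts, a ratio of 1.30 (1.09 to 1.56). Their log2 ratios were 0.50 and 0.38, so neither passed 2-fold.

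The rest of the chromosome 18 cluster had few or no counts. SERPINB3 and SERPINB4, the squamous cell carcinoma antigens, were at 0 in both libraries, as were SERPINB11 and SERPINB12. SERPINB13 (headpin), a serpin of differentiating keratinocytes that inhibits cathepsins, had 0 counts in CD44 high cells and 19 in CD44 low cells. This is at least 6.33-fold lower against a floor of 3 counts in the CD44 high library, and an interval that includes the counting error of the 19 counts began at 4.66-fold. SERPINB13 was 1 count under the minimum for a measured gene and was singled out after its values had been seen.

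The cluster did not move as a block. From the start of SERPINB5 to the end of SERPINB8 it spans 529 kb, and along that stretch SERPINB5 and SERPINB2 were below equality while SERPINB7 and SERPINB8 were above it. All 7 neighbours of a list for chromosome 18q21 were measured, and all had log2 ratios below 0. Of the 12140 measured protein coding genes, 5977 were below 0. The neighbours had a median of -0.16 and a range from -0.73 (TNFRSF11A, the receptor RANK, named after its value had been seen) to -0.05. In 3 of the 7 the interval held equality, and 0 passed the 2-fold rule in either direction. The neighbours with the largest counts were VPS4B, an ATPase of membrane scission, and KDSR, an enzyme of sphingolipid synthesis. VPS4B had 2092 against 2471 counts, a ratio of 0.848 (0.799 to 0.899), and KDSR 1053 against 1091, a ratio of 0.966 (0.887 to 1.05).

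**Figure D3:**
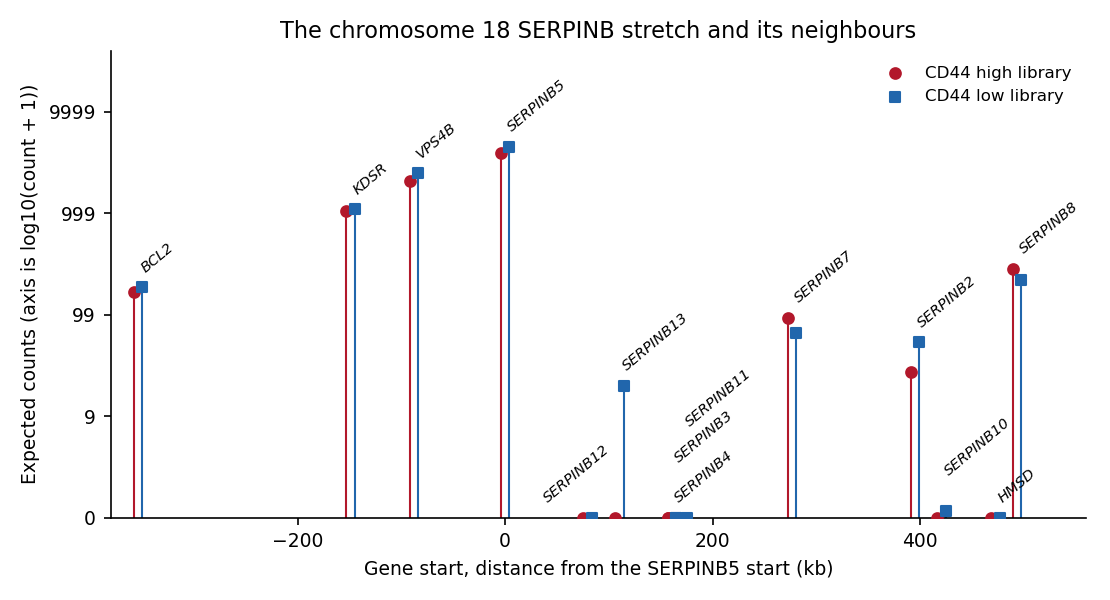
Expected counts of the genes along the chromosome 18 SERPINB stretch in the CD44 high (circles) and CD44 low (squares) library, on an axis of log10(count + 1), against the distance of each gene start from the SERPINB5 start in kb. The tall lines at SERPINB5 (3885 and 4494 counts) are followed by genes at or near 0, and SERPINB13 has a line only in the CD44 low library (19 counts).

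The chromosome 6 genes also split. SERPINB6, which inhibits the leukocyte protease cathepsin G, had 737 expected counts in CD44 high cells and 625 in CD44 low cells, a log2 ratio of 0.24 (0.08 to 0.40). SERPINB1, the inhibitor of neutrophil elastase, had 380 and 469 counts and was 1.23-fold lower (1.07 to 1.42), with a log2 ratio of -0.30 that was 0.00 on the log2(TPM + 1) scale, where all protein coding genes had a median of 0.17. Relative to that median SERPINB1 stood at -0.17. SERPINB9, the inhibitor of granzyme B, was at 0 in both libraries.

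Among the secreted serpins, SERPINF1 differed most. It encodes pigment epithelium-derived factor, a non-inhibitory serpin known for restraining blood vessel growth. The gene (ENSG00000132386, chr17:1761959-1777574, plus strand) had 24 expected counts in CD44 high cells and 67 in CD44 low cells. It was 2.79-fold lower in CD44 high cells (1.73 to 4.65), a log2 ratio of -1.46, with 2.37 against 6.95 TPM. Under the 4 other scalings its log2 ratio lay between -1.49 and -1.24. The value of -1.24 is on the log2(TPM + 1) scale, where the added 1 draws small levels together. Its neighbour SERPINF2, which encodes alpha-2-antiplasmin and ends 6690 bases upstream of it, had 56 and 53 counts, a ratio of 1.06 (0.713 to 1.57). The 2 genes of clade F therefore did not share the difference of SERPINF1, although the interval of SERPINF2 is wide. Few of the SERPINF1 reads were assigned to ENST00000254722, which has the longest coding sequence among its transcripts with counts (1254 bases). That transcript had 8.36 expected counts in CD44 high cells and 17.55 in CD44 low cells, or 17.2% and 11.1% of the TPM. The other counts went to shorter transcripts.

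SERPINE2 and SERPINI1, which act on thrombin and the plasminogen activators, had intervals that held equality. SERPINE2, or protease nexin-1, which inhibits thrombin and urokinase, had 604 and 564 counts, a log2 ratio of 0.10 whose interval held 0 (-0.07 to 0.27). SERPINI1 (neuroserpin), an inhibitor of tissue plasminogen activator, was too sparse to place, with 20 and 23 counts and a ratio of 0.871 (0.453 to 1.66); its log2 ratio of -0.20 was 0.05 on the log2(TPM + 1) scale and -0.12 relative to all protein coding genes there.

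SERPINH1 had 2440 expected counts in CD44 high cells and 2718 in CD44 low cells. The ratio of 0.899 (0.851 to 0.950), a log2 ratio of -0.15, was the best determined small difference among the other clades. On the log2(TPM + 1) scale it was -0.02, or -0.19 relative to all protein coding genes.

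Compared as groups, clade B and the other clades had similar centres. The 6 measured SERPINB genes had a median log2 ratio of 0.02, with 3 above and 3 below 0, and ranged from -1.01 to 0.50. The 6 measured members of other clades had a median of -0.04, also 3 above and 3 below, and the lowest was SERPINF1 at -1.46. The 4 chromosome 18 genes had a median of 0.09 and the 2 chromosome 6 genes of -0.03. All 12140 measured protein coding genes had a median of 0.01, so no group of serpins stood far from the bulk of genes. Each group held 1 member past the 2-fold rule, and in each it was lower in CD44 high cells.

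Transcripts of the serpin genes were compared as shares of the TPM of their gene. RSEM divides reads that fit several transcripts between them, so these shares carry no counting interval. Of the 6 serpin genes with at least 200 expected counts in both libraries, 0 had a transcript whose share differed by 30 percentage points or more. The largest difference among them was in SERPINB8, where ENST00000542677 took 24.8% in the CD44 low library and 0% in the CD44 high library. In SERPINB6, ENST00000380546 took 23.3% of the TPM in CD44 high cells and 0% in CD44 low cells, whereas ENST00000380529 took 9.43% and 30.1%. These transcripts of SERPINB6 begin at different first exons and share 1 coding sequence of 1128 bases, whose 4 transcripts together held 86.2% and 85.9%. The share of SERPINB6 assigned to this coding sequence was therefore nearly the same in both libraries while the assignment of first exons was not.

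SERPINB7 showed a wider change of start site, on fewer reads than that minimum, and was described after its values had been seen. ENST00000336429, which begins at the upstream start, was assigned 57.33 expected counts in the CD44 low library and 0 in the CD44 high library, or 89.3% and 0% of the TPM. ENST00000398019, which begins 22.4 kb further downstream, had 7.67 counts in the CD44 low library and 61.51 in the CD44 high library, or 10.7% and 64.6%. ENST00000546027, from the next start, had 0 and 23.19 counts. All 3 carry the same coding sequence of 1140 bases, so they differ outside it. With at most 92 counts for the gene, and first exons as the only part that tells these transcripts apart, the number of reads behind the assignment is small. The windows printed above are those in front of these 3 starts, and the AP-1 letters are before the downstream pair.

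**Figure D4:**
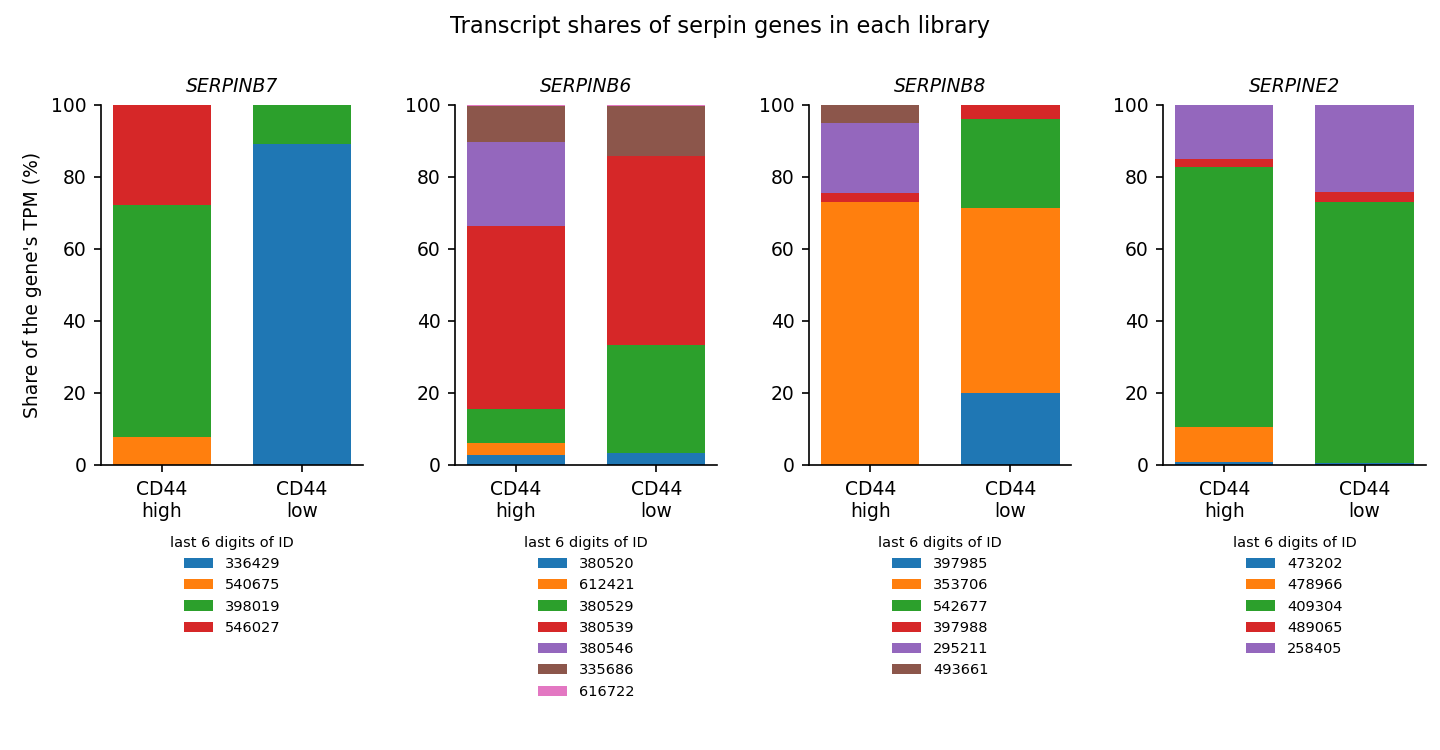
Share of each gene's TPM (percent) assigned to its transcripts in the CD44 high and CD44 low library, as stacked bars for SERPINB7, SERPINB6, SERPINB8 and SERPINE2, with transcripts named by the last 6 digits of their identifier. The SERPINB7 bar is mostly ENST00000336429 in the CD44 low library (89.3%) and has none of it in the CD44 high library, where ENST00000398019 takes 64.6%.

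SERPINE2 has 2 abundant transcripts that differ by 3 coding bases at the start of exon 7. The pair is shown because these bases are all that separates the coding sequences. Each run joins the last 20 bases of the exon before to the first bases of exon 7 (chromosome 2, minus strand, GENCODE release 44), and capitals mark the bases found only in the longer form.
ENST00000258405, exon at chr2:223980311-223980400: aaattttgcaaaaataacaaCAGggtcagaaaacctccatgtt
ENST00000409304, exon at chr2:223980311-223980397: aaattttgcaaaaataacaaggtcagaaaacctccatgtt
The shorter form was the main one, with 72.2% of the TPM of SERPINE2 in CD44 high cells and 72.7% in CD44 low cells. The longer form took 14.9% and 24.0%. A further transcript with no coding sequence, ENST00000478966, took 9.83% and 0%.

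Upstream letters were also counted over the family. Of the 34 symbols, 27 matched the RefSeq promoter table, and 9 of the measured genes did, with 16 windows of 250 bases before a RefSeq start. These starts can differ from those of the deposited transcripts. The RefSeq starts of SERPINE2 were 648 and 7810 bases from the nearest deposited start. For SERPINB1, SERPINB5, SERPINE2 and SERPINH1, the letters counted below lie past the start of the transcript with most of the gene's TPM. The AP-1 letters of SERPINB8 also do. SERPINF1 and SERPINF2 had no window. AP-1 letters (TGACTCA, either strand) were in 2 of the 9 genes, SERPINB7 and SERPINB8, and in 3 of the 16 windows, beside 4.20% of 35116 windows of all genes. SERPINB13 carried them too, 87 bases before its RefSeq start. TATA letters (TATAAA) were in 3 genes, SERPINB2, SERPINB7 and SERPINB8, and in 3 windows, beside 10.7% of all windows, and in SERPINB8 matches on opposite strands overlap. GC box letters (GGGCGG) were in 5 genes and 8 windows, beside 42.6%. Those genes were SERPINB1, SERPINB5, SERPINB6, SERPINE2 and SERPINH1, the 5 serpins with the highest TPM. Of these, only SERPINB6 had the letters before the start of the transcript with most of its TPM. Outside the measured genes, SERPINB9, SERPINA5 and SERPINA10, with no counts in either library, carried GC box letters too, as did the sparse SERPINA1. Heat shock letters (GAANNTTC) were in 2 genes, SERPINB7 and SERPINH1, and in 2 windows, beside 5.78%. Windows of one gene can overlap, and no test was made of these shares.

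The proteases that serpins act on were compared as gene lists. Beside these lists and those below, 1.13% of all protein coding genes with enough counts were 2-fold higher and 3.83% were 2-fold lower. Of 7 measured plasminogen and coagulation genes, 6 had enough counts for the 2-fold rule and 0 passed it, with a median log2 ratio of 0.05 over the 7. The gene below that minimum was C1R, a protease of the complement system, with 5 against 23 counts, 4.59-fold lower (1.71 to 15.5). F3 (tissue factor) had 6919 against 6706 expected counts and PLAU (urokinase) 2455 against 2172. PLAT (tissue plasminogen activator) and PLAUR (the urokinase receptor) were named after their values had been seen: PLAT had 265 against 507 counts, 1.91-fold lower (1.64 to 2.23), and PLAUR 1766 against 1325, a ratio of 1.33 (1.24 to 1.43). Of 9 measured epithelial serine proteases, 0 were 2-fold higher and 1 was 2-fold lower, with a median of 0.00. The 1 gene was TMPRSS4, a membrane-bound trypsin-like protease, with 33 counts against 227, 6.87-fold lower (4.75 to 10.2). FURIN, named as the target of SERPINB8 although the rule for names does not select it, had 1797 against 1933 counts.

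Cysteine proteases, which some clade B serpins inhibit, and the other inhibitor families had medians slightly below equality. Of 8 measured cysteine and leukocyte proteases, 7 had enough counts for the 2-fold rule, 0 passed it and the median log2 ratio was -0.32. CTSV (cathepsin V) had 2846 against 4289 expected counts and CTSC (cathepsin C) 4207 against 3854. CASP1, the inflammatory caspase, was the gene below the minimum, with 9 against 20.66 counts (2.29-fold lower, 1.02 to 5.78). Of 11 measured inhibitors outside the serpin family, 9 had enough counts for the rule, 0 were 2-fold higher and 1 was 2-fold lower, with a median of -0.27 over the 11. Below that minimum were SLPI, a leukocyte protease inhibitor of secretions, with 8 against 21 counts (2.62-fold lower, 1.12 to 6.85), and A2ML1, an epidermal protease inhibitor, with 12 against 33 (2.75-fold lower, 1.38 to 5.84). SPINK5, an epidermal inhibitor of kallikreins, had 368 against 893 counts and was 2.42-fold lower (2.14 to 2.74). By an interval that leaves out equality, 5 of the 9 were lower and 3 were higher, beside 31.1% and 33.6% of all protein coding genes. Among the higher was TFPI, named after its values had been seen, with 2797 against 1801 counts, a ratio of 1.55 (1.46 to 1.65).

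Receptors that clear serpin complexes, and the cofactors that bind serpins, had a median log2 ratio of 0.16 over 11 measured genes. They went both ways: by an interval that leaves out equality, 6 were higher and 4 were lower. The shares of all protein coding genes were 33.6% and 31.1%. VLDLR, a lipoprotein receptor that takes up complexes of serpins with their proteases, was the 1 gene that was 2-fold higher, with 62 against 30 expected counts, a ratio of 2.07 (1.32 to 3.31), and 0 were 2-fold lower. Of 29 factors that regulate serpin genes, 2 were 2-fold higher and 3 were 2-fold lower, and the median of the list was -0.11. The AP-1 subunit FOSL1 was 3.26-fold higher (3.07 to 3.46) and the growth factor TGFB2 3.20-fold higher (2.57 to 3.99). The AP-1 subunit FOS was 2.22-fold lower (2.13 to 2.31) and the squamous master regulator TP63 2.07-fold lower (1.97 to 2.17). ATF3, a stress factor named beyond the rule because it was the remaining member, was 2.03-fold lower (1.88 to 2.18). The AP-1 subunits in the list therefore differed in opposite directions.

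**Figure D5:**
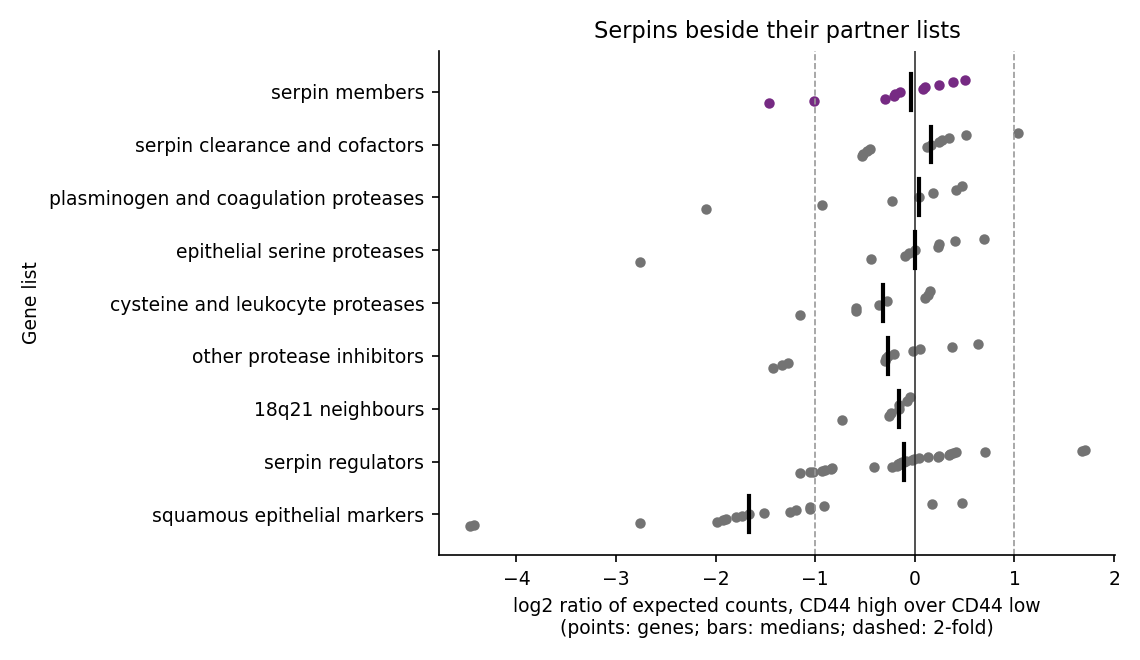
The log2 ratio of expected counts, CD44 high over CD44 low, for 11 of the 12 measured serpins (top line) and each measured member of the partner lists (points), with the median of each list as a bar and dashed lines at 2-fold. The median of all 12 serpins (-0.04) lies among those of the protease and inhibitor lists, between -0.32 and 0.05. Most squamous markers lie far to the left, and the median of that list is -1.67.

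Squamous epithelial markers, the cell state in which several clade B serpins are known, were lower as a list than the serpins were. Of 17 measured markers, 15 had enough counts for the rule, 13 were 2-fold lower and 0 were 2-fold higher, with a median log2 ratio of -1.67. Of all protein coding genes with enough counts, 3.83% were 2-fold lower and 1.13% were 2-fold higher. By the looser criterion of an interval that leaves out equality, 14 markers were lower and 1 was higher. The shares of all protein coding genes were 31.1% and 33.6%. The higher marker was IVL (involucrin), named after its values had been seen, with 186 against 134 counts, a ratio of 1.39 (1.11 to 1.75). The summed level of the squamous markers was 234 TPM in CD44 high cells and 714 TPM in CD44 low cells. KRT13, the keratin of esophageal lining, had 55 against 1229 expected counts, and SPRR3, a cornified envelope protein, had 17 against 376. SOX2 and TRIM29 were 6.78-fold (6.23 to 7.39) and 3.97-fold (3.25 to 4.88) lower. The measured SERPINB genes had a median of 0.02 beside this list, and SERPINB2 and SERPINB13 were the clade B genes on the same side with a difference of at least 2-fold. The part of squamous state in the SERPINB2 and SERPINB13 values was not tested.

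Markers of other cell types that express serpins were near 0. Of 12 leukocyte markers, 6 were at 0 in both libraries and the others apart from CD68 had at most 9 counts, with a summed level of 5.45 TPM in the CD44 high and 3.99 TPM in the CD44 low library. CD68, a lysosomal protein that is not limited to leukocytes, had 122.52 against 58.62 counts, while CD3E, CD3D and MS4A1 were at 0. Of 10 fibroblast and endothelial markers, 5 were at 0, among them DCN, LUM and PDGFRA, and the summed level was 5.22 and 6.54 TPM, most of it COL1A1 with 175 against 292 counts. All 10 liver markers were under 20 counts, as the SERPINA genes were, with summed levels of 0.19 and 0.07 TPM.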

How the data were processed

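Values come from 1 CD44 high and 1 CD44 low library of KYSE30 cells, grouped by their GEO labels. The authors mapped paired reads of poly(A) libraries to GRCh38 with STAR 2.7.8 and quantified genes and transcripts with RSEM 1.2.31. They deposited expected counts, divided by a size factor, and TPM, which is scaled by transcript length, for 60725 genes and 199348 transcripts. Columns of the authors' EBSeq 1.18.0 comparison (fold change, posterior probability, FDR) were not used. The adapters carried molecular identifiers (UMIs). Whether these were used to remove duplicates, whether counting used strand, and the annotation release are not given in the sources used here, so overlapping and antisense genes cannot be separated. Unscaled expected counts were recovered as whole multiples of 0.01 (largest deviation 5.22e-08 of a step).

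Ratios are CD44 high over CD44 low after median-of-ratios scaling, with a prior count of 0.5 in log2 ratios. Intervals are exact conditional binomial (Clopper-Pearson) 95% intervals on counts rounded to whole numbers. They cover counting error alone, as reads are not known to be independent molecules, and the lack of replicates means that no test across genes was made. A count of 0 was set against a floor of 3 counts per library. A gene was measured with at least 20 counts in a library and called at 50 counts, 2-fold and an interval without equality. A transcript shift was 30 percentage points in a gene with 200 counts in both libraries.

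Every measured serpin is named except 1 that is not reported here but is kept in counts and medians, other members by range. In partner lists up to 4 called genes with the largest ratio, otherwise 2 with the largest counts, are named. Exceptions are marked in the text, apart from genes given as below the count minimum markers that check the cell line, and defining markers of other cell types given as at 0. Members and lists (176 symbols, all matched) were chosen with earlier results of these data known. Exons came from GENCODE release 44 by transcript identifier. Protein sequences were not used here, so reactive centres are not shown. Alternatives were TMM factors (edgeR 4.0.16, R 4.3.3), total counts, the nuclear protein coding total, log2(TPM + 1) with a minimum of 1 TPM, and other thresholds. Computations used Python 3.11.15, numpy 2.4.6, scipy 1.17.1 and pandas 2.3.3, and were checked on simulated data.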

Additional observations from a re-analysis of the deposited data

How the results depend on the processing

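No paired analysis was possible because each group has 1 library. The number of serpins at least 2-fold higher was 0 under every setting tried. The number at least 2-fold lower, 2 in the report, was 1 with TMM factors, total counts, log2(TPM + 1), a prior count of 5 or members with whole counts, where SERPINB2 dropped out, and 0 with a minimum of 200 counts or a 3-fold threshold. It was 3 without a minimum count, SERPINB13 being added. The median log2 ratio of all serpins was 0.10 on log2(TPM + 1), 0.10 among members with at least 200 counts, 0.080 with whole counts only and 0.090 without SERPINB2 and SERPINF1, the last chosen after seeing the data. The SERPINB median was 0.19, 0.24 and 0.24 under TPM, whole counts and that removal, and the median of other serpins 0.10, 0.10 and 0.080 under TPM, the 200 count minimum and the removal. Partner medians on log2(TPM + 1) were 0.18 (plasminogen and coagulation), 0.12 (epithelial proteases), -0.14 (cysteine proteases), -0.10 (other inhibitors), -0.32 (18q21 neighbours), 0.076 (regulators) and -1.25 (squamous). At 200 counts the cysteine and squamous medians were -0.085 and -1.77. TPM moved the median of all protein coding genes to 0.17 from 0.01, and these values include that shift. Genes with a transcript shift numbered 1 at a minimum of 50 counts (SERPINB7) and 2 at 20 percentage points. The cause of these differences was not tested. Of 12 members, 2 (SERPINB1 and SERPINI1) changed sign under a scaling. Depth limits SERPINB2, SERPINF1, SERPINF2, SERPINB7 and SERPINI1, with under 100 counts per library.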

Other observations

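A few serpin-related genes fall outside the name pattern or the protein coding class. SERPINB9P1, annotated as a long intergenic noncoding RNA next to the chromosome 6 cluster, had 6 expected counts in CD44 high cells and 7 in CD44 low cells. The 7 other serpin-named genes outside the protein coding class, all pseudogenes by biotype and SERPINA2 among them, were at 0 in both libraries. AGT, the angiotensinogen gene, is a serpin by fold and was also at 0 in both libraries.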
